A study of Homo sapiens with 6 samples.

Results

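Intermediate filament genes formed a set of 10: the neurofilament subunit genes NEFM, NEFL and NEFH, alpha-internexin (INA), peripherin (PRPH), nestin (NES), vimentin (VIM) and the simple keratins KRT8, KRT18 and KRT19. Members were taken by gene symbol from the RNA-seq count table, and 9 of the 10 were among its 30270 genes. KRT19 was not analysed here. The set was proposed after the difference between the 2 groups of libraries had been seen, so the values of its members in these groups are a description and no test is given for them. Total RNA depleted of ribosomal RNA was sequenced from 6 libraries of HEK 293T, an immortalized human embryonic kidney cell line grown without further treatment: 3 libraries were labelled wild type (WT) and 3 were labelled TENT3A/B double knockout, here called ΔTUT4/7. TENT3A (TUT4) and TENT3B (TUT7) are terminal uridylyltransferases, enzymes that tail RNA with uridines. The WT cells came from a repository and the knockout line from another laboratory, where it had been made earlier. Each genotype was 1 line, so genotype and line history cannot be told apart. The labels call the libraries of a group biological replicates, and p-values measure the spread between these libraries.

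Intermediate filaments are rope-like polymers of the cytoskeleton, built by end-to-end and lateral assembly of coiled-coil dimers. Vimentin is the usual filament protein of mesenchymal and cultured cells and can form homopolymers, whereas nestin joins filaments made by vimentin. In neurons the light subunit NEFL forms the core of the filament, NEFM and NEFH carry long side arms, and INA and PRPH assemble with them. Keratins are obligate pairs of a type II and a type I chain, for which KRT8 and KRT18 are the first pair made in the embryo and in simple epithelia. This cell line is known to express neurofilament genes in spite of their kidney origin.

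The libraries held between 18757228 and 33148937 assigned reads. The targeted genes did not both go with the label: TUT7 was 62.6 ± 2.17 CPM (read counts scaled to library size; mean ± SD, n = 3) in WT and 26.3 ± 1.04 in the libraries labelled ΔTUT4/7, while TUT4 was higher there, 906 ± 21.4 against 211 ± 5.08. Gene counts alone do not show whether a transcript is intact. All directions below therefore rest on the labels. Of 12 embryonic kidney markers, 9 were in the table and 8 had at least 1 CPM in both groups. PAX8 and CDH16 were not analysed here. Neuron markers were present too, with 16 of 26 at 1 CPM or more in WT and 17 in the libraries labelled ΔTUT4/7.

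Across the 9 measured members, 5 were at least 2-fold lower in the libraries labelled ΔTUT4/7 (NEFM, NEFL, PRPH, NES and KRT8), against 13.9% of all 23952 genes tested. Another 2 members, INA and VIM, were at least 2-fold higher, against 6.58% of all genes. The WT and ΔTUT4/7 values did not overlap for 8 members, NEFH being the exception, and they did not overlap for 62.7% of all genes. The median log2 fold change of the members (ΔTUT4/7 relative to WT) was -1.34, and that of all genes tested was -0.02. Because these members were selected on the same contrast, nothing is read from the counts.

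**Figure D1:**
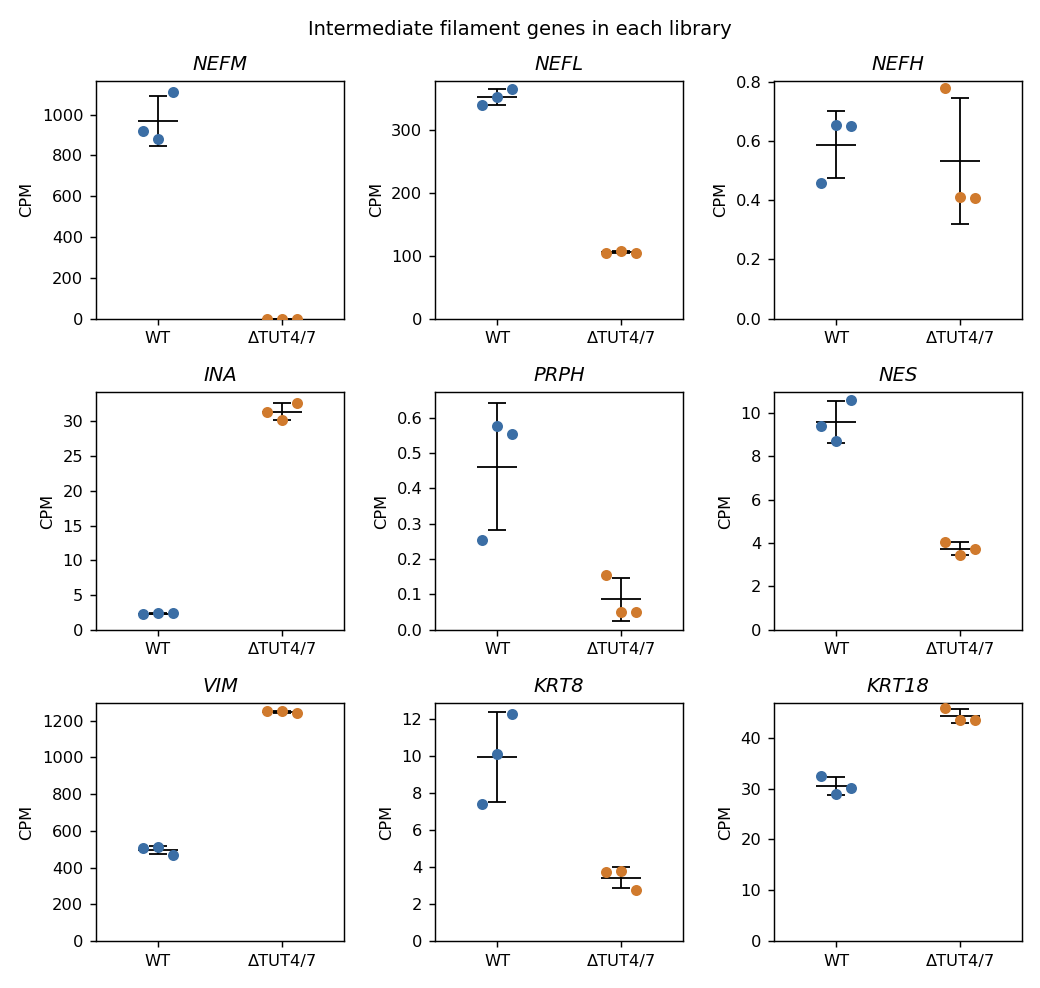
CPM of the 9 measured intermediate filament genes, 1 panel per gene with its own linear axis from 0. Each point is a library, the horizontal line is the mean and the bars are the SD (n = 3 per group). NEFM is at 969 CPM in WT and nearly 0 in the other group, NEFL is at 352 and 105 CPM, and INA and VIM sit higher in all 3 libraries labelled ΔTUT4/7.

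The 3 promoters shown here belong to the 2 members that were at least 2-fold higher and to nestin, the co-assembly partner of vimentin, which was lower. RefSeq promoters (GRCh38.p14) were matched for 5 of the 10 members, INA, PRPH, NES, VIM and KRT8, and for INA, NES and VIM the RefSeq start is also the start of the gene interval in the count table. Each line gives the 250 bases before the start, 5′ to 3′ on the strand of the gene. INA lies at chr10:103276888-103277137 on the plus strand, VIM at chr10:17227991-17228240 on the plus strand and NES at chr1:156677408-156677657 on the minus strand. Capitals mark the letters GGGCGG or CCGCCC, the GC box read on either strand. TATAAA and CCAAT, also searched on both strands, occurred in none of the 3. The motifs do not overlap one another here.
INA: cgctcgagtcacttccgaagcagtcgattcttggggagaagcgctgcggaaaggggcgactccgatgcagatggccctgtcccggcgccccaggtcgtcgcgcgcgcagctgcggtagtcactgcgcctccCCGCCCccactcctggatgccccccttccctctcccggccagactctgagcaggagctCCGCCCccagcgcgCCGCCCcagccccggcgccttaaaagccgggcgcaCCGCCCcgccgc
VIM: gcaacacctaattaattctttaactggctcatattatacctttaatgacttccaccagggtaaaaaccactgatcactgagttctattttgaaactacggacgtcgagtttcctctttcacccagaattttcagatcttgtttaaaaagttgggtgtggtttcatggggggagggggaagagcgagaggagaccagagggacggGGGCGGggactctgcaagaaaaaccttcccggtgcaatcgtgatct
NES: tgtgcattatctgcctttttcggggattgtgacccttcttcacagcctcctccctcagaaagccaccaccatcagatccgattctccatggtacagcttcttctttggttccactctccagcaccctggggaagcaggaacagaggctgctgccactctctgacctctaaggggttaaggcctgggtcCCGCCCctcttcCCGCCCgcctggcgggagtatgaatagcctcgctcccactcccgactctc

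GC boxes were found 4 times upstream of INA, 2 times upstream of NES and 1 time upstream of VIM, and at least 1 was present in 42.6% of all 35116 promoters of this length. The INA window held 30 CpG dinucleotides, more than 87.6% of all promoters, and its GC content was 72.8%. VIM and NES each held 8, below the median of 11, with a GC content of 46.0% and 58.0% against a median of 58%. TATAAA was present in 10.7% and CCAAT in 32.0% of all promoters. The windows before the RefSeq starts of INA and VIM, both at least 2-fold higher, were thus of unlike composition. Which start these cells use was not tested.

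Alpha-internexin, a neuronal filament protein that can assemble without NEFL, was the member with the largest fold difference upward. INA (chromosome 10, 103277138 to 103290346, hg38) was 2.24, 2.42 and 2.35 CPM in the WT libraries and 31.4, 30.2 and 32.7 CPM in those labelled ΔTUT4/7. The lowest value labelled ΔTUT4/7 was thus far above the highest in WT, and replicates of a group lay close together. The means were 2.34 ± 0.0919 and 31.4 ± 1.24 CPM (SD, n = 3), a 13.4-fold difference and a log2 fold change of 3.74 ± 0.11 (SE). NT5C2, which encodes a cytosolic nucleotidase and lies on the other strand, shares 468 bases with the start of the INA interval. NT5C2 rose by 0.40 ± 0.05 on the log2 scale (edgeR quasi-likelihood test over all genes, Benjamini-Hochberg adjusted p = 1.75e-06), a much smaller difference than that of INA.

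Vimentin was the most abundant member per length in the libraries labelled ΔTUT4/7. VIM (chromosome 10, 17228241 to 17237593) was 505, 513 and 470 CPM in WT and 1255, 1251 and 1244 CPM in the libraries labelled ΔTUT4/7. The groups were well separated and the higher group was the tighter one. The means of 496 ± 22.9 and 1250.0 ± 5.77 CPM differed 2.52-fold, with a log2 fold change of 1.33 ± 0.04. Both antisense neighbours that share positions with VIM are low next to it. VIM-AS1, which overlaps it over 1745 bases, fell by 1.09 on the log2 scale (SE 0.21, adjusted p = 0.000118), opposite to VIM. AL133415.1, which lies inside the VIM interval over 1509 bases, rose by 1.13 ± 0.08 (adjusted p = 4.05e-11). The strand setting of the counting is not given in the sources used here, so reads of such pairs cannot be told apart.

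Nestin, which marks neural stem and progenitor cells, went the other way from vimentin. NES (chromosome 1, 156668763 to 156677407) was 9.42, 8.69 and 10.6 CPM in WT and 4.06, 3.45 and 3.73 CPM in the libraries labelled ΔTUT4/7. Every WT library was above every library labelled ΔTUT4/7. The means were 9.57 ± 0.962 and 3.75 ± 0.302 CPM, 2.55-fold lower, with a log2 fold change of -1.34 ± 0.13. The level of VIM per kilobase of exon was 56.3 ± 7.99 times that of NES in WT and 360 ± 28.5 times in the libraries labelled ΔTUT4/7.

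The medium neurofilament subunit gave the most extreme values of the set. NEFM (chromosome 8, 24913758 to 24919098) had 18074, 22844 and 34030 counts in the WT libraries, or 920, 879 and 1110 CPM. It had 0, 0 and 1 count in the libraries labelled ΔTUT4/7. NEFM was thus the most abundant member in every WT library and at or near 0 in every library labelled ΔTUT4/7. Summed over the libraries and scaled, the ratio of WT to ΔTUT4/7 was 69754 (95% counting interval 12519 to 2755185, which covers counting error only). The fitted log2 fold change of -15.63 rests on that 1 count and on the prior count of the fit. Its SE of 0.26 is derived from the test statistic and does not cover the counting error of 1 count. The log2 fold change was -17.60 without ΔTUT4/7 replicate 3, which holds that count, and -14.93 without ΔTUT4/7 replicate 1. In WT the mean was 969 ± 123 CPM, a coefficient of variation of 12.7%. Of the genes counted at 50 or more on average, 81.5% varied less than this between the WT libraries, and their median was 6.32%.

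The light subunit, the core of the neurofilament, was lower but remained abundant. NEFL (chromosome 8, 24950955 to 24956721, opposite strand, 31856 bases beyond the end of NEFM) was 339, 352 and 364 CPM in WT and 104, 107 and 105 CPM in the libraries labelled ΔTUT4/7. The 2 groups were separated by far more than the spread within either. The means of 352 ± 12.4 and 105 ± 1.33 CPM differed 3.34-fold, a log2 fold change of -1.74 ± 0.05. The neighbours NEFM and NEFL therefore differed very unequally. In WT the level of NEFM per kilobase was 2.98 ± 0.302 times that of NEFL, whereas no library labelled ΔTUT4/7 held more than 1 NEFM count. In bulk RNA, fewer cells that express a gene and less of its RNA per cell cannot be told apart.

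The heavy subunit and peripherin were near the detection limit in both groups. NEFH (chromosome 22, 29480218 to 29491390) had 9, 17 and 20 counts in WT and 25, 8 and 8 counts in the libraries labelled ΔTUT4/7. Its groups overlapped, at 0.588 ± 0.112 and 0.534 ± 0.213 CPM, and the sign of its log2 fold change of -0.10 ± 0.40 turned when ΔTUT4/7 replicate 2 (0.052) or replicate 3 (0.057) was left out. PRPH (chromosome 12, 49293252 to 49298686) had 5, 15 and 17 counts in WT and 5, 1 and 1 in the libraries labelled ΔTUT4/7. After scaling its groups did not overlap, at 0.462 ± 0.180 and 0.0862 ± 0.0605 CPM, with a log2 fold change of -2.24 ± 0.67 that was -3.08 without ΔTUT4/7 replicate 1. All 5435 bases of PRPH lie within AC125611.4 on the other strand, which fell by 2.83 on the log2 scale (SE 0.53, adjusted p = 0.000104) and its reads cannot be told apart from those of PRPH without strand.

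The keratin pair split, with the type II chain lower and the type I chain higher. KRT8 (chromosome 12, 52897187 to 52949954) was 7.43, 10.2 and 12.3 CPM in WT and 3.71, 3.81 and 2.76 CPM in the libraries labelled ΔTUT4/7. Its means were 9.96 ± 2.44 and 3.43 ± 0.583 CPM, 2.90-fold lower, with a log2 fold change of -1.54 ± 0.18, and the WT libraries were spread widely. KRT18 (chromosome 12, 52948871 to 52952906) was 32.4, 28.9 and 30.1 CPM in WT and 46.0, 43.5 and 43.6 CPM in the libraries labelled ΔTUT4/7. These means of 30.5 ± 1.78 and 44.3 ± 1.42 CPM differed 1.45-fold, a log2 fold change of 0.54 ± 0.06. The ratio of KRT18 to KRT8 per kilobase was 9.78, 6.39 and 5.50 in WT and 27.8, 25.5 and 35.4 in the libraries labelled ΔTUT4/7, without overlap. The 2 gene intervals lie on opposite strands and share 1084 bases.

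Both keratins have many processed pseudogenes, near-copies that can take or give reads, so their counts are uncertain. The 18 KRT8 pseudogenes in the table together held 22.9 ± 0.539 CPM in WT and 18.8 ± 1.28 CPM in the libraries labelled ΔTUT4/7, more than KRT8 itself in both groups. With them added, the sum was 32.9 ± 2.97 and 22.3 ± 0.818 CPM, 1.48-fold lower rather than 2.90-fold. For KRT18 the 23 pseudogenes held 20.9 ± 1.60 and 23.0 ± 1.40 CPM, and the sum with the parent was 1.31-fold higher. The direction of each keratin was thus the same with its pseudogenes, at a smaller size. Of 27 keratin pseudogenes tested, 4 fell and 2 rose, against 29.0% and 28.6% of all genes tested (edgeR quasi-likelihood test, adjusted p below 0.05), and their median log2 fold change was -0.07. The most abundant, KRT8P12, fell by 0.54 on the log2 scale (SE 0.15, adjusted p = 0.00468). KRT8P33 had a log2 fold change of -0.07 (adjusted p = 0.753) and KRT8P39 one of 0.32 (adjusted p = 0.0990), neither of which passed.

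**Figure D2:**
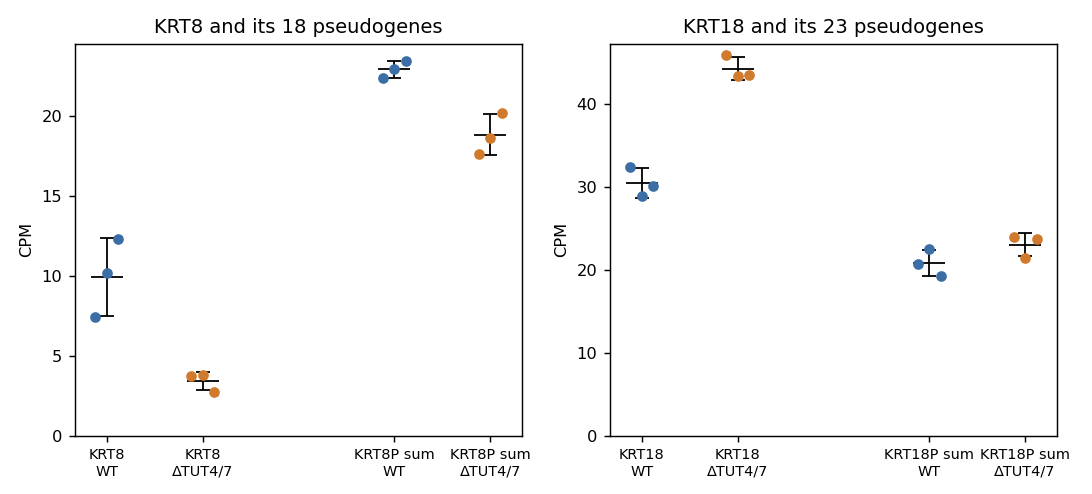
CPM of KRT8 (left) and KRT18 (right) beside the summed CPM of their pseudogenes in the table. Points are libraries, the line is the mean and the bars are the SD (n = 3). The pseudogene sum exceeds KRT8 in all 6 libraries, while KRT18 exceeds its pseudogene sum in all 6.

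Divided by exon length, the levels of different members can be set side by side, and the leading filament gene was NEFM in WT and VIM in the libraries labelled ΔTUT4/7. In WT, NEFM led at 267 ± 33.9 CPM per kilobase. VIM at 95.8 and NEFL at 89.3 followed and overlapped across libraries. KRT18 was next at 9.94, then NES at 1.72 and KRT8 at 1.45, which overlapped, then INA at 0.719. PRPH at 0.176 and NEFH at 0.155 were last and overlapped. In the libraries labelled ΔTUT4/7 the order was VIM at 241 ± 1.11 CPM per kilobase, NEFL at 26.7, KRT18 at 14.4, INA at 9.66, NES at 0.673, KRT8 at 0.498, NEFH at 0.141, PRPH at 0.0329 and NEFM at 0.00468, with no neighbours overlapping. INA thus stood above NES and KRT8 here and below them in WT. The exon length of KRT8 is the union over all its transcripts, which lowers its value per kilobase if short transcripts prevail.

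The make-up of filament mRNA went from mainly neuronal to mainly vimentin. As a share of the summed level per kilobase of the 9 genes, NEFM held 57.1 ± 3.22% in WT and 0.00160% in the libraries labelled ΔTUT4/7. VIM held 20.7 ± 2.30% and 82.2 ± 0.0931%, and NEFL 19.2 ± 0.893% and 9.11 ± 0.129%. The 5 neuronal genes together (NEFM, NEFL, NEFH, INA and PRPH) held 76.5 ± 2.40% in WT and 12.5 ± 0.124% in the libraries labelled ΔTUT4/7. Within them the balance of NEFL to INA went from 124 ± 4.04 to 2.77 ± 0.139, since the first was lower and the second higher. The summed level of the 9 genes was 466 ± 32.3 and 294 ± 1.39 CPM per kilobase, 1.59-fold lower.

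**Figure D3:**
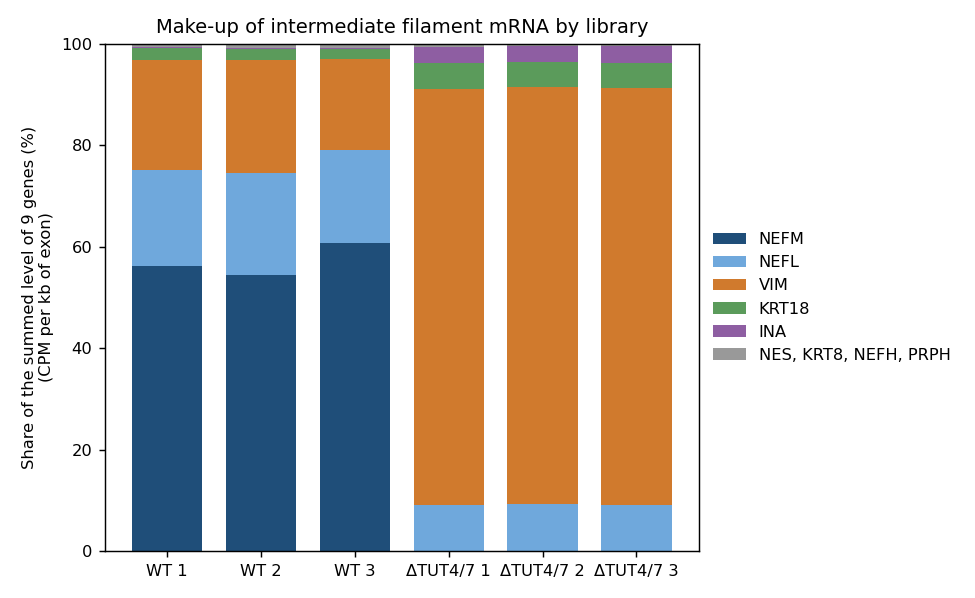
Share (%) of each gene in the summed level of the 9 measured intermediate filament genes, in CPM per kilobase of exon, 1 stacked bar per library. NEFM fills 57.1% of the WT bars on average and cannot be seen in the ΔTUT4/7 bars, where VIM fills 82.2%.

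NEFM and NEFL lie side by side, and the genes around them were lower as well. Of 34 tested genes starting within 2 Mb of the pair, 24 fell and 2 rose, against 29.0% and 28.6% of all genes tested, and their median log2 fold change was -0.73 (all genes -0.02). Among the 21 whose counts averaged at least 50, 15 fell and 2 rose, with a median of -0.45. Within 1 Mb, 5 of 8 tested genes fell and 0 rose, also with a median of -0.45. AF106564.1, which overlaps the start of NEFM over 960 bases on the other strand, had 79 counts in WT and 0 in the libraries labelled ΔTUT4/7, at least 24.5-fold lower with 3 counts as the bound (adjusted p = 3.54e-05). Without strand its reads cannot be told apart from those of NEFM, so its fall may repeat that of NEFM. It is among the 24 genes that fell. The next tested gene on that side, STC1, a secreted glycoprotein hormone that starts about 1.07 Mb from the NEFM start, fell by 1.76 (SE 0.24, adjusted p = 2.02e-06). On the NEFL side DOCK5, an activator of Rac, fell by 0.31 (SE 0.05, adjusted p = 3.24e-05), and AC091185.2 had a log2 fold change of 0.14 (adjusted p = 0.805). AC107373.2, which overlaps NEFL over 101 bases, had 10 and 9 counts and was not tested.

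Other genes of this stretch were also at 0 in the libraries labelled ΔTUT4/7. TNFRSF10A, a death receptor for the ligand TRAIL that lies about 1.72 Mb from NEFM, had 697 counts in WT and 0 there, at least 216-fold lower (adjusted p = 7.55e-14). Its antisense gene TNFRSF10A-AS1 had 107 and 0 counts, at least 33.2-fold lower (adjusted p = 4.47e-08). R3HCC1 rose by 0.24 ± 0.08 (adjusted p = 0.00990), a call that was lost with library-size scaling (adjusted p = 0.168). NEFL, at -1.74, lay below the median of its well-counted neighbours within 1 Mb, -0.44 over 5 genes.

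**Figure D4:**
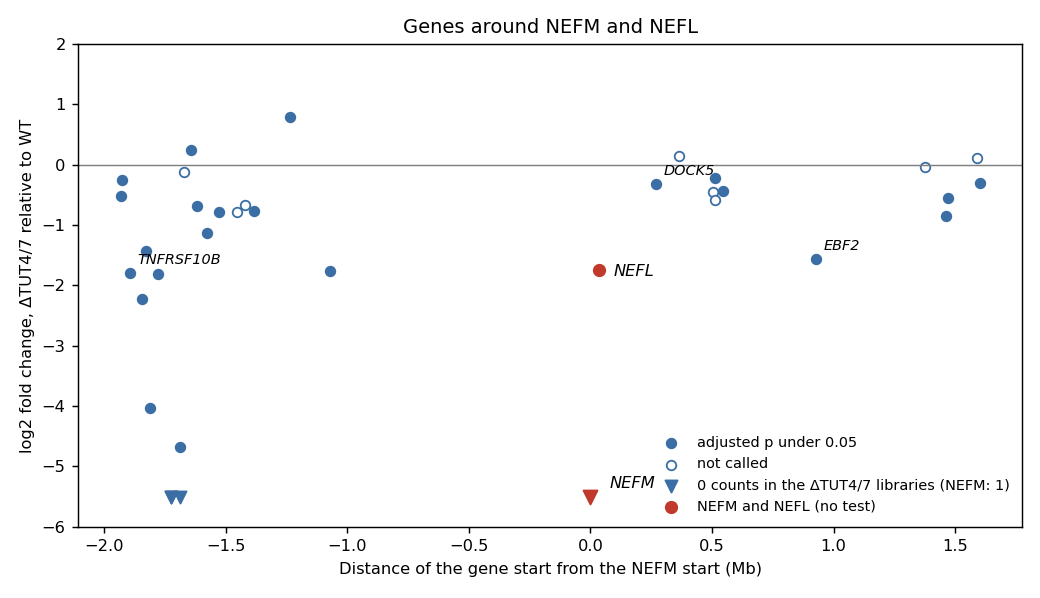
Log2 fold change (ΔTUT4/7 relative to WT) of the 34 tested genes within 2 Mb of NEFM and NEFL, by distance (Mb) of the gene start from the NEFM start. Filled points passed the test, open points did not, triangles at the lower edge are genes at 0 counts in the libraries labelled ΔTUT4/7 (NEFM had 1), and NEFM and NEFL are red (the triangle of AF106564.1 lies behind that of NEFM). Most filled points are below 0.

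Around the other members, the medians of the neighbouring genes lay between -0.18 and 0.40. Taking the genes within 1 Mb whose counts averaged at least 50, their median difference on the log2 scale was 0.40 around INA (29 genes), -0.17 around VIM (11), 0.18 around NES (34), 0.34 around PRPH (44), 0.28 around KRT8 (31) and -0.18 around NEFH (25). NES, PRPH and KRT8 were thus lower among neighbours whose median was above 0, and VIM was higher among neighbours whose median was below 0. INA went in the same direction as the median of its neighbours, which was the highest of these medians. KRT18, among 32 genes with a median of 0.28, differed from its neighbours by 0.26.

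Among filament genes outside the set, synemin fell most. Of 9 tested non-keratin filament genes, 3 fell and 4 rose (29.0% and 28.6% of all genes tested), the share that fell being near that of all genes, with a median log2 fold change of 0.20. SYNM, a large filament protein that joins vimentin filaments, was 32.6, 30.8 and 33.8 CPM in WT and 0.905, 0.567 and 1.17 CPM in the libraries labelled ΔTUT4/7. It was thus low in every such library, and it fell by 5.19 on the log2 scale (SE 0.14, adjusted p = 2.62e-17). The nuclear lamins split: LMNA fell by 0.35 (SE 0.06, adjusted p = 2.76e-05), while LMNB2 rose by 0.58 ± 0.04 (adjusted p = 2.89e-10) and LMNB1 by 0.52 ± 0.04 (adjusted p = 1.21e-09). IFFO1, a filament family orphan, rose by 0.64 ± 0.07 (adjusted p = 1.98e-07). Of 52 other keratins only 3 were in the table and 2 were tested. KRT10, a type I keratin of differentiated epidermis, rose by 0.80 ± 0.08 (adjusted p = 4.24e-08). KRT222 rose by 0.45 ± 0.14 (adjusted p = 0.0117), a call that was lost without WT replicate 2 (adjusted p = 0.0577), without ΔTUT4/7 replicate 1 (0.0712) and with library-size scaling (0.0559).

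Genes that anchor filaments to junctions, to the nucleus and to one another included some that fell and some that rose. Of 13 tested linker and turnover genes, 7 fell and 5 rose (29.0% and 28.6% of all genes tested), with a median log2 fold change of -0.28, and 8 fell and 3 rose with library-size scaling. EPPK1 (epiplakin), a keratin-binding plakin, was 9.16 ± 1.28 CPM in WT and 0.185 ± 0.0829 CPM in the libraries labelled ΔTUT4/7, and fell by 5.72 on the log2 scale (SE 0.26, adjusted p = 6.25e-14). FAM83H, which binds keratins and casein kinase, fell by 2.71 (SE 0.12, adjusted p = 2.56e-14), and SYNE3, a nuclear envelope linker, fell by 1.46 (SE 0.11, adjusted p = 6.08e-08). PKP2, a desmosomal plaque protein, rose by 1.48 ± 0.08 (adjusted p = 7.44e-13). DST (dystonin), a giant linker of filaments, rose from 338 to 648 CPM, by 0.94 ± 0.04 (adjusted p = 1.11e-13). TCHP, a keratin-binding protein, rose by 0.45 ± 0.07 (adjusted p = 2.35e-05).

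Of the other neuronal genes, more rose than fell. Of 21 tested neuronal cytoskeleton and neuron marker genes, 6 fell and 13 rose (29.0% and 28.6% of all genes tested), the share that fell being near that of all genes, with a median log2 fold change of 0.67. RBFOX3, the NeuN antigen, rose by 2.12 ± 0.15 (adjusted p = 1.39e-10), SYP, a synaptic vesicle protein, by 1.90 ± 0.13 (adjusted p = 8.32e-11) and STMN3, a stathmin, by 1.79 ± 0.08 (adjusted p = 1.17e-13). The adhesion molecule NCAM1 fell by 0.74 (SE 0.05, adjusted p = 8.34e-11). The vesicle calcium sensor SYT1 fell by 0.43 (SE 0.09, adjusted p = 0.000175), and the RNA-binding protein ELAVL2 by 0.37 (SE 0.07, adjusted p = 9.03e-05). Of the 26 listed genes 22 were in the table, with DCX, STMN2, STMN4 and ELAVL4 not among the genes analysed. The summed level of these 22 ranged from 736 to 762 CPM in WT and from 1022 to 1040 CPM in the libraries labelled ΔTUT4/7. Such a sum is led by its most abundant genes and does not stand for each gene of the list.

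Among regulators of neuronal genes, more fell than rose. Of 11 tested, 7 fell and 2 rose (29.0% and 28.6% of all genes tested), with a median log2 fold change of -0.55. The transcription factors HAND2, EBF2 and EBF1 fell by 1.74 (SE 0.21, adjusted p = 3.75e-07), 1.57 (SE 0.11, adjusted p = 8.40e-11) and 1.00 (SE 0.22, adjusted p = 0.000500). EBF2 lies within 1 Mb of NEFM and counts among its neighbours too. EBF3 rose by 0.55 ± 0.06 (adjusted p = 1.19e-07) and RCOR1, a corepressor partner of the neuronal gene repressor REST, by 0.40 ± 0.05 (adjusted p = 1.43e-06).

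**Figure D5:**
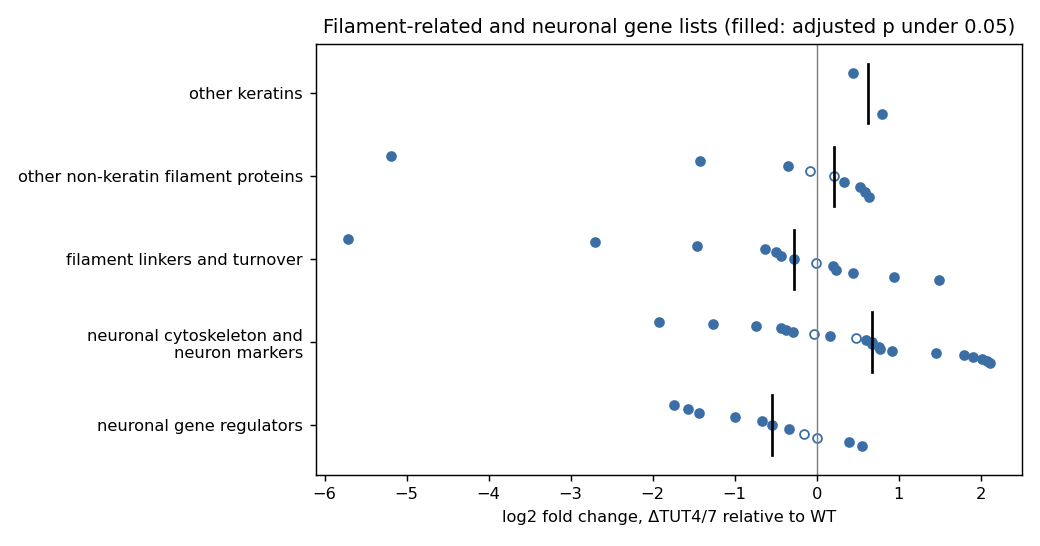
Log2 fold change (ΔTUT4/7 relative to WT) of the tested genes of 5 lists, 1 point per gene, filled where the adjusted p was below 0.05, with the median of each list as a vertical line. The medians are 0.62 for other keratins, 0.20 for other non-keratin filament genes, -0.28 for linkers, 0.67 for neuronal genes and -0.55 for neuronal regulators, and SYNM and EPPK1 are the points at the far left.

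Among markers of other cell types, the summed levels of the epithelial and fibroblast lists differed between the groups, while those of the embryonic kidney list overlapped. The summed level of the epithelial markers (8 listed, all in the table) ranged from 40.6 to 43.0 CPM in WT and from 58.8 to 60.8 CPM in the libraries labelled ΔTUT4/7, although 5 and then 2 of them reached 1 CPM. Of 6 epithelial markers tested, 3 fell and 1 rose, against 29.0% and 28.6% of all genes tested (edgeR quasi-likelihood test, adjusted p below 0.05). The higher sum therefore does not stand for most of the list. Fibroblast markers (5 of 8 in the table) ranged from 23.4 to 27.7 CPM and from 10.6 to 12.5 CPM, and of 4 tested 2 fell and 0 rose. COL1A2, DCN and LUM, which define fibroblasts, were not among the genes analysed. The embryonic kidney markers summed to 164 to 176 CPM and to 167 to 168 CPM, and of 9 tested 5 fell and 4 rose. The part of these cell types in the vimentin, nestin, keratin and neurofilament values was not tested.

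By level and pattern together, measured as the Euclidean distance between log2(CPM + 1) profiles over the 6 libraries, the genes nearest to VIM were DDX21, a nucleolar helicase (distance 0.241), SCD, a fatty acid desaturase (0.399), and the pseudogene NPM1P27 (0.544). DDX21 averaged 474 CPM in WT and 1184 in the libraries labelled ΔTUT4/7, close to the values of VIM. Nearest to NEFL were ALDH1L2 (0.509), UTRN, which encodes utrophin (0.516), and LRATD2 (0.631). UTRN averaged 364 and 129 CPM. NEFM had no close match: the nearest were COL14A1 at 6.51, BMP2 at 6.85 and MYOM2 at 7.57, and none of these 3 was among the nearest 3 with a pseudocount of 0.1.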

How the data were processed

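RNA-seq libraries of HEK 293T cells (3 WT, 3 ΔTUT4/7) were used. The deposited values are estimated counts per gene that the authors obtained after alignment to hg38, with STAR 2.7.3a and Partek 10.0.22 named in the submitters' processing notes. The smallest summed count of a gene in the table is 10, and 45.2% to 50.0% of values per library are not whole, so counts were rounded. The authors' own comparison file holds p-values, false discovery rates, ratios, fold changes and group means and was not used. Genes with a largest count over 12 were tested (23952 of 30270) with the edgeR 4.0.16 quasi-likelihood test, TMM scaling and Benjamini-Hochberg adjustment over all of them, called at adjusted p below 0.05. The method was tested on simulated data. CPM used TMM-scaled library sizes, and levels per kilobase used the union exon length of GENCODE. The SE of a log2 fold change is its size divided by the square root of the F statistic of the test. Such an SE can be smaller than the counting error where a group has few counts. Ends of intervals are 1 base before the deposited stop. A fold against a group at 0 is a lower bound set at 3 counts for the group.

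The members and gene lists were chosen with earlier results of these data known. Named from each list were called genes whose counts averaged at least 50, up to 3 with the largest fall and 3 with the largest rise. Around NEFM and NEFL these were the 2 nearest tested genes on each side and up to 2 called genes with the largest fall and rise. The 3 most abundant keratin pseudogenes, the 3 genes most like NEFM, NEFL and VIM, and genes overlapping a member were also named. Other genes named are markers absent from the table. Some genes that this rule selects are not reported here. Each library counted as 1 replicate, which rests on the labels. Libraries of a group differed by more than counting error (chi-square per degree of freedom 2.63 to 14.1 within groups, 94.9 to 170 between groups). Those values do not show whether the libraries came from independent cultures. Alternatives were RLE and library-size scaling, DESeq2 1.42.0, limma-voom (limma 3.58.1), other count filters, unrounded counts, a replicate block and leaving out each library.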

Additional observations from a re-analysis of the deposited data

How the results depend on the processing

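Members: over the alternatives run, the log2 fold change ranged from 3.63 to 3.77 for INA, 1.22 to 1.36 for VIM, 0.43 to 0.58 for KRT18, -1.85 to -1.72 for NEFL, -1.46 to -1.27 for NES, -1.71 to -1.36 for KRT8, -3.08 to -2.01 for PRPH and -17.60 to -14.93 for NEFM, and NEFH ran from -0.53 to 0.057 when each library was left out, turning sign without ΔTUT4/7 replicate 2 (0.052) and replicate 3 (0.057). With a mean count of 50 or more NEFH and PRPH were not tested and 4 members were at least 2-fold lower. Library-size scaling shifted the median of all genes by -0.11, so a difference of that size depends on the scaling. Over all genes it gave 8272 as lower and 5548 as higher, in place of 6958 and 6855. The all-gene shares given beside the lists therefore depend on the scaling too. Library-size scaling gave 1 other keratin, 3 linkers and 1 neighbour of NEFM as higher. With no count filter 1 other keratin was lower, and with a mean count of 50 or more 1 keratin pseudogene was higher. Leaving out each library gave 1 to 2 other keratins and 1 to 3 keratin pseudogenes as higher (1 pseudogene without ΔTUT4/7 replicate 1). The neighbours that fell numbered 5 and those that rose 0 within 1 Mb. Within 5 Mb, 54 of 85 tested genes fell and 2 rose, with a median log2 fold change of -0.61, so the lower values were not confined to the nearest genes. Without division by length NEFM held 51.7% and VIM 26.6% in WT, VIM 86.9% and NEFL 7.32% in ΔTUT4/7, and INA 0.125% and 2.18%. With a pseudocount of 0.1, 0 of the genes most like NEFM were shared. AC091185.2 ran from -0.23 to 0.54, negative without WT replicate 1 (-0.10) and ΔTUT4/7 replicate 1 (-0.23), and KRT8P33 from -0.19 to 0.074, positive without WT replicate 2 (0.074) and ΔTUT4/7 replicate 1 (0.0096). Neither was called. Of the other values computed, 625 for single genes and 244 for counts and shares kept their direction and side of the threshold or moved within the spread. The 244 include the counts over all genes with library-size scaling, which moved as given above.

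The replicate numbers did not pair the libraries: deviations of same-numbered libraries correlated at 0.0509, -0.0229 and -0.0145. With the number as a replicate block the member median was -1.35, 5 members were at least 2-fold lower and 2 higher, 6 neuronal regulators in place of 7 fell, and 6846 genes fell and 6832 rose over all genes.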
